A study of Mus musculus with 4 samples.

Results

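The insulin-like growth factor (IGF) family comprised 10 genes of the count table, chosen by name: the ligands Igf1 and Igf2, the receptors Igf1r and Igf2r, and the binding proteins Igfbp2, Igfbp3, Igfbp4, Igfbp5, Igfbp6 and Igfbp7. All 10 were found among 55471 gene IDs, and 9 of them were among the 17940 genes with enough counts for a test; Igfbp6 was too low. RNA was sequenced from amacrine cells, inhibitory neurons that connect within the inner retina, of C57BL6 mice at postnatal days 6 to 7. Every animal carried the Gbx2-CreERT2-IRES-EGFP allele, in which Gbx2 regulatory sequence drives a tamoxifen-inducible Cre and green EGFP, and the Ai9 reporter, which turns on tdTomato where Cre has acted. Flow cytometry split the tdTomato cells into a GFP-positive fraction (replicates 2 and 3) and a GFP-negative fraction (replicates 2 and 6), with 2 libraries each and 750 to 2500 sorted cells per RNA sample. Both fractions thus carry the same alleles and tdTomato, and they differ in whether EGFP was seen at the sort. The study design treats them as separate amacrine subtypes. The libraries of a fraction are taken as replicates from separate animals, but the labels give replicate numbers and name no animals. They also do not say whether the replicates 2 of the fractions came from the same animal.

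IGF1 and IGF2 are secreted growth factors that signal through IGF1R, a receptor tyrosine kinase related to the insulin receptor. IGF2R, which is also the mannose-6-phosphate receptor, takes IGF2 up for breakdown in lysosomes. The IGF binding proteins hold the ligands outside cells and regulate their access to the receptor, and proteases such as PAPP-A and HTRA1 cut some of them; IGFBP7 binds IGFs more weakly than the others and is well known from blood vessels.

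The family was proposed after the difference in Igfbp7 between the fractions had been seen. Its values are therefore given as a description, with fold changes and standard errors but no p-values for its members. Total counts ran from 41040667 to 44689917 per library. Gbx2, the gene behind the sort, stood at 602 and 496 CPM in the GFP-positive libraries, against 28.7 and 55.5 CPM in the GFP-negative libraries (CPM, counts divided by the scaled library size and multiplied by 1000000). The 7 amacrine markers were present in every library but did not stand at like levels in the fractions. Pax6 overlapped, at 1972 and 1286 CPM in GFP-positive, against 1469 and 2245 CPM in GFP-negative libraries. Gad1 and Gad2, which encode the GABA-synthesising enzymes, were called lower in GFP-positive cells by edgeR, with GFP-negative means 12.3 and 8.60 times the GFP-positive ones. Without overlap but not called, Tfap2a, Tfap2b and Slc32a1 were lower on average in GFP-positive cells, and the glycine transporter gene Slc6a9 was higher. The libraries also held transcripts of other retinal cells: 13 rod photoreceptor markers reached a sum of 9180 and 15450 CPM in the GFP-positive libraries 2 and 3, against 7925 and 1991 CPM in GFP-negative replicates 2 and 6; the part of these transcripts in the results was not tested. In bulk RNA, fewer cells of a type and less RNA per cell cannot be told apart.

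Igfbp7 was the member with the largest difference. It had 14462 and 14782 counts in GFP-positive replicates 2 and 3, or 316 and 311 CPM, against 350 and 514 counts, or 8.37 and 14.4 CPM, in GFP-negative replicates 2 and 6. Both GFP-positive libraries were high and nearly equal, and the fractions were far apart. The mean was 314 ± 3.86 CPM in the GFP-positive libraries, against 11.4 ± 4.23 CPM in the GFP-negative ones (SD, n = 2 each), a 27.6-fold ratio, with a log2 fold change of 4.79 ± 0.40 (standard error). Igfbp7 (ENSMUSG00000036256) lies on the minus strand of chromosome 5 at 77349240 to 77408041 (GRCm38), and 85 of its exonic bases overlap exons of Polr2b on the other strand. Polr2b had 8898 and 6154 counts in GFP-positive and 6870 and 7297 in GFP-negative libraries, so it did not share the pattern. The 250 bases before the start of Igfbp7 and of Igfbp5, the 2 members with the largest positive log2 fold changes, are given here from RefSeq (GRCm38.p6), 5′ to 3′ on the minus strand, with matches to GGGCGG or its reverse complement, a GC box, in capitals.
Igfbp7, chr5:77408046-77408295: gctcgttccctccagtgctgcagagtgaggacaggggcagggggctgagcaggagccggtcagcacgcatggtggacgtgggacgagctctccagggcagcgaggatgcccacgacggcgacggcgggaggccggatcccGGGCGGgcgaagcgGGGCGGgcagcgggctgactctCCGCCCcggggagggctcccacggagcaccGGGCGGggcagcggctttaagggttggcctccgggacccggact
Igfbp5, chr1:72874866-72875115: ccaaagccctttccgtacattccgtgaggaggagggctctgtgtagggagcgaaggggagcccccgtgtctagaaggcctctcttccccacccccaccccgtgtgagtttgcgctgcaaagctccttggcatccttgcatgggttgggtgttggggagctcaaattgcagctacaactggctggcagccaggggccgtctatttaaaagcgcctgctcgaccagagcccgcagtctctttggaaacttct

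In the full RefSeq windows of 300 bases (250 before to 50 after the start), Igfbp7 had 73.3% G and C and 4 matches to GGGCGG, and Igfbp5 had 56.3% G and C and none. All 10 members matched, with 14 windows among them, since Igf2 has 4 starts and Igfbp2 has 2. GGGCGG stood in 6 of the 14 windows and in 35.7% of all 32851 windows. TATAAA, the TATA box, stood in 2 of the 14 (Igfbp4 and Igfbp6) and in 13.6% of all. TAATTA, a core bound by many homeodomain factors, the class to which Gbx2 belongs, stood in 1 of the 14 (a start of Igf2) and in 5.29% of all windows. These 3 motifs were searched on both strands. A match describes the letters and is not a binding site.

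**Figure D1:**
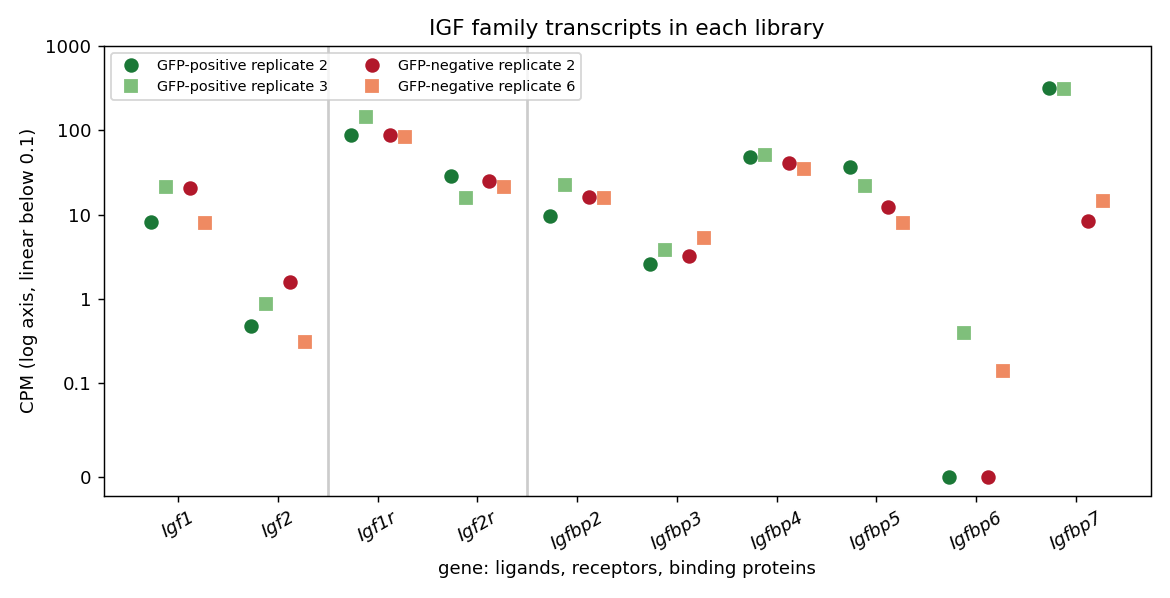
CPM of the 10 family members in each library, on a log axis that is linear below 0.1 so that 0 can be shown; circles and squares are single libraries, with GFP-positive left of GFP-negative. Igfbp7 stands at 316 and 311 CPM in GFP-positive, against 8.37 and 14.4 CPM in GFP-negative libraries, while Igf1 and Igf2 spread as widely within a fraction as between them.

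Igfbp7 transcripts are known from endothelial cells and pericytes, so the markers of those cells are given beside it. The whole list of 12 endothelial markers totalled 121 and 132 CPM in the 2 GFP-positive libraries, against 94.8 and 67.0 CPM in GFP-negative replicates 2 and 6, so it was higher in both GFP-positive libraries. Most of that sum came from Kdr, a VEGF receptor, at 118 and 69.3 CPM in GFP-positive, against 79.7 and 58.6 CPM in GFP-negative libraries. Without Kdr, left out after its values were seen, the other 11 summed to 3.54 and 62.6 CPM in GFP-positive, against 15.1 and 8.43 CPM in GFP-negative libraries. GFP-positive replicate 2 thus had the lowest sum of these 11 markers, but it was not the lowest library for Pecam1 or Cldn5, and it was the highest for Kdr. Its Igfbp7 level, 316 CPM, was as high as that of GFP-positive replicate 3. The part of endothelial cells in the Igfbp7 values was not tested. In GFP-positive replicate 2, 6 of the 12 endothelial markers were at 0 (Cdh5, Tek, Tie1, Emcn, Ly6c1 and Erg). The number at 0 was also 6 in GFP-negative replicate 2, with 5 in GFP-negative replicate 6 and 2 in GFP-positive replicate 3. Ly6c1 and Erg were at 0 in all 4.

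The 7 pericyte markers summed to 6.58 and 27.6 CPM in GFP-positive, against 11.6 and 7.26 CPM in GFP-negative libraries, so the fractions overlapped. For Pdgfrb, the pericyte PDGF receptor, the fractions did not overlap, at 2.89 and 7.93 CPM in GFP-positive, against 0 and 0.61 CPM in GFP-negative libraries. Nor did they for Abcc9, a potassium channel subunit gene, at 0.24 and 2.84 CPM in GFP-positive, against 0 and 0.14 CPM in GFP-negative libraries. Kcnj8, another potassium channel subunit gene, did not overlap in the opposite direction, at 0 in both GFP-positive libraries, against 0.62 and 0.06 CPM in GFP-negative libraries, and was too low for the test. Rgs5, the most abundant pericyte marker, stood at 0.07 and 13.2 CPM in GFP-positive, against 9.51 and 3.55 CPM in GFP-negative libraries. Of the 11 endothelial and pericyte markers tested, none was called by edgeR, DESeq2 or limma-voom. At an unadjusted edgeR p under 0.05, 2 of the 11, Pdgfrb and Abcc9, were higher in GFP-positive cells. Of all genes tested, 5.24% were higher at that threshold, and 12.6% passed it in either direction. The part of Kdr, Pdgfrb and Abcc9 in the Igfbp7 difference was not tested. Cd93, an endothelial surface receptor known to bind IGFBP7, had 10 and 321 counts in GFP-positive libraries and 0 in both GFP-negative libraries, and it was too low for the test.

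**Figure D2:**
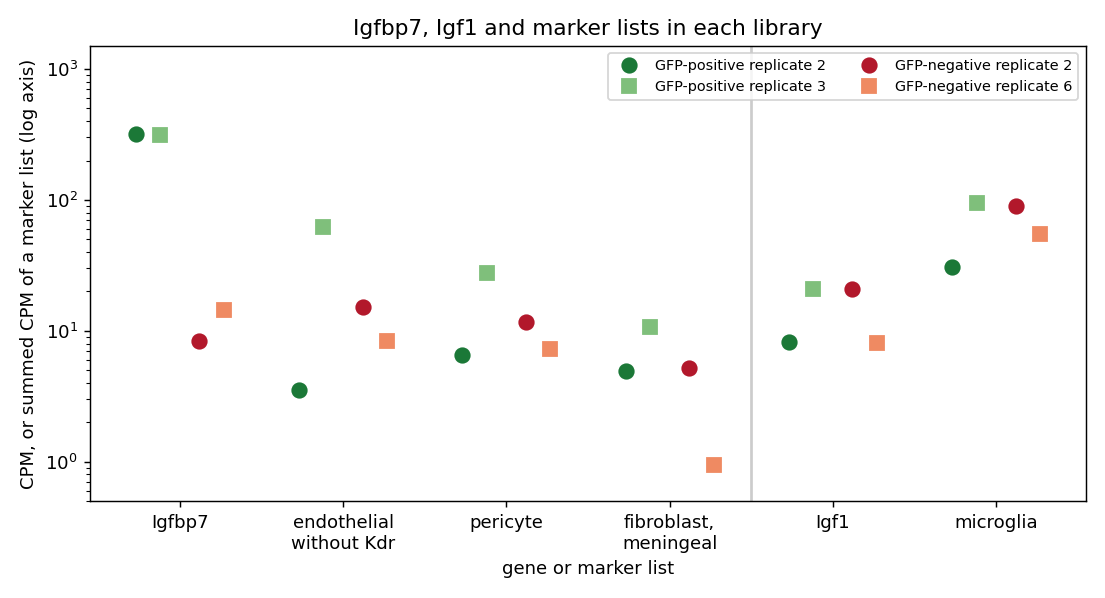
CPM of Igfbp7 and Igf1 and summed CPM of marker lists in each library, on a log axis; left of the line are lists of vascular and connective tissue cells, right of it Igf1 with the microglia list. Igfbp7 is at 316 CPM in GFP-positive replicate 2, where the endothelial sum without Kdr is the lowest, at 3.54 CPM. Kdr was left out after its values were seen, and the endothelial sum with Kdr is not drawn. That sum is 121 and 132 CPM in GFP-positive, against 94.8 and 67.0 CPM in GFP-negative libraries, so it is higher in both GFP-positive libraries. The part of endothelial cells in the Igfbp7 values was not tested.

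The other binding proteins differed less. Igfbp5, whose product also attaches to extracellular matrix, stood at 37.0 and 22.0 CPM in GFP-positive, against 12.3 and 8.02 CPM in GFP-negative libraries. The fractions did not overlap, the ratio of means was 2.90, and the log2 fold change was 1.53 ± 0.44. Igfbp4, which has an inhibitory effect on IGF action in many tissues, stood at 48.2 and 51.1 CPM in GFP-positive, against 40.8 and 34.5 CPM in GFP-negative libraries (log2 fold change 0.40 ± 0.31). These fractions did not overlap either, but the ratio of means was only 1.32. Igfbp2, a binding protein of the developing nervous system, stood at 9.67 and 22.4 CPM in GFP-positive, against 16.1 and 15.5 CPM in GFP-negative libraries. The GFP-positive libraries lay on either side of the GFP-negative ones, and the means were nearly equal, at 16.0 ± 8.99 and 15.8 ± 0.40 CPM (SD, n = 2 each). Igfbp3, the main IGF carrier of serum, stood at 2.58 and 3.83 CPM in GFP-positive, against 3.25 and 5.25 CPM in GFP-negative libraries, and the fractions overlapped. Igfbp6, which prefers IGF2 as its ligand, had 0 and 19 counts in GFP-positive and 0 and 5 counts in GFP-negative libraries. A count of 3, the limit that a count of 0 allows, was 0.0656 CPM in GFP-positive replicate 2 and 0.0717 CPM in GFP-negative replicate 2, and it covers counting error only. Igfbp2 and Igfbp5 are neighbours on chromosome 1, 5457 bases apart and facing each other tail to tail (72824503 to 72852474 on the plus strand and 72857932 to 72874884 on the minus strand, GRCm38), yet in these 4 libraries the order of their levels differed.

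Summed per length, the binding protein transcripts changed their make-up between the fractions. Per kilobase of exon, the 6 binding proteins summed to 285 and 286 CPM in GFP-positive, against 28.0 and 31.2 CPM in GFP-negative libraries. Igfbp7 made up 91.9% and 89.9% of that sum in GFP-positive, against 24.7% and 38.0% in GFP-negative libraries. Without Igfbp7 the other 5 summed to 23.1 and 28.9 CPM per kilobase in GFP-positive, against 21.0 and 19.4 in GFP-negative libraries. Igfbp4 held 3.83% and 4.05% of the sum in GFP-positive, against 33.1% and 25.0% in GFP-negative libraries, and Igfbp2 held 1.84% and 4.24%, against 31.1% and 26.9%. The levels of Igfbp4 and Igfbp2 themselves, per kilobase, were 11.2 and 8.67 CPM on average in GFP-positive, against 8.53 and 8.56 CPM in GFP-negative libraries.

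**Figure D3:**
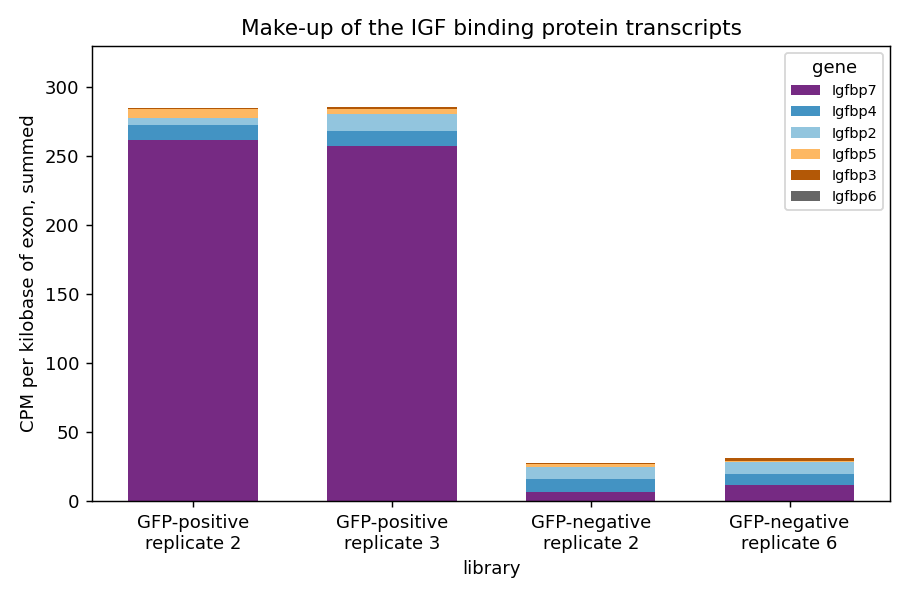
Stacked levels of the 6 IGF binding protein transcripts in each library, in CPM per kilobase of exon; each bar is 1 library and each colour 1 gene. The GFP-positive bars reach 285 and 286, of which Igfbp7 is 91.9% and 89.9%, and the GFP-negative bars reach 28.0 and 31.2.

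Both ligands were low and varied as much within a fraction as between fractions. Igf1 stood at 8.22 and 21.0 CPM in GFP-positive replicates 2 and 3, against 20.7 and 8.04 CPM in GFP-negative replicates 2 and 6. Each fraction held a high and a low library, and the high one was 2.55 times the low one among GFP-positive libraries and 2.58 times among GFP-negative ones; the log2 fold change was 0.01 ± 0.60. Igf1 is known from microglia in the developing retina, and the sum of 7 microglia markers was highest in the libraries where Igf1 was, at 30.9 and 95.4 CPM in GFP-positive, against 89.5 and 55.1 CPM in GFP-negative libraries; their part in the Igf1 values was not tested. Not every marker of the list followed the sum. Cx3cr1 stood at 6.45 and 5.99 CPM in GFP-positive, against 6.74 and 7.65 CPM in GFP-negative libraries, and P2ry12 at 3.32 and 3.15 CPM, against 11.8 and 5.95 CPM, so both were lowest in GFP-positive replicate 3, where Igf1 was highest. Csf1r, the most abundant of them, stood at 6.89 and 24.9 CPM in GFP-positive, against 35.2 and 14.8 CPM in GFP-negative libraries. Igf2, an imprinted fetal growth factor, had 22 and 41 counts in GFP-positive, against 66 and 11 in GFP-negative libraries, or 0.48 and 0.86 CPM against 1.58 and 0.31 CPM (log2 fold change -0.53 ± 1.01). Its level is uncertain, since the annotated read-through gene Gm49394 shares 3596 exonic bases with it on the same strand, was listed at 0 in all 4 libraries, and the sources used here do not say how such reads were counted. H19, the imprinted RNA gene beside Igf2, stood at 0.46 and 1.32 CPM in GFP-positive, against 8.80 and 0.70 CPM in GFP-negative libraries, so both genes were highest in GFP-negative replicate 2. The sum of 4 astrocyte markers was also highest in that library, at 5.34 and 11.0 CPM in GFP-positive, against 42.2 and 9.61 CPM in GFP-negative libraries; their part was not tested. Pdgfra and Gfap made up most of that sum. Pax2, at 0.04 and 0.29 CPM in GFP-positive, against 0.48 and 0.73 CPM in GFP-negative libraries, was highest in GFP-negative replicate 6. Of the marker lists summed, only that of astrocytes was highest in GFP-negative replicate 2. No comparison of it with Igf2 or H19 was planned. The fibroblast and meningeal sum was 4.92 and 10.6 CPM in GFP-positive, against 5.21 and 0.95 CPM in GFP-negative libraries. The retinal pigment epithelium sum was 3.06 and 18.3 CPM, against 2.34 and 4.80 CPM. Both were highest in GFP-positive replicate 3.

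Both receptors were present in every library. Igf1r stood at 88.8 and 145 CPM in GFP-positive, against 88.1 and 82.1 CPM in GFP-negative libraries. The fractions did not overlap, but by a narrow margin between the replicates 2, and only GFP-positive replicate 3 stood clear of the rest (log2 fold change 0.46 ± 0.33). Igf2r stood at 28.4 and 15.8 CPM in GFP-positive, against 25.1 and 21.1 CPM in GFP-negative libraries, with overlapping fractions (log2 fold change -0.06 ± 0.41). Airn, the imprinted antisense RNA gene within Igf2r, shares no exonic bases with it and had 34 and 182 counts in GFP-positive, against 92 and 24 in GFP-negative libraries.

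Of the 9 members tested, 1 passed an edgeR adjusted p of 0.05, Igfbp7, in the direction of higher expression in GFP-positive cells, where 0.234% of all genes tested passed; since this difference led to the choice of the family, nothing is read from the share. No member was lower by edgeR, DESeq2 or limma-voom, or at an unadjusted edgeR p under 0.05, where 7.34% of all genes tested were lower. At that threshold 2 members, Igfbp7 and Igfbp5, were higher, as were 5.24% of all. Nothing is read from these shares either, since the family was chosen with values of this contrast known. Of all genes tested, 1.1% passed in either direction. The fractions did not overlap for 4 of the 9 members (Igfbp7, Igfbp5, Igfbp4 and Igf1r), each of them higher in GFP-positive cells. Across all genes tested, 43.8% did not overlap in either direction, and 22.5% did not overlap with GFP-positive cells higher. The share among members was near the background for either direction and above that for higher alone. Nothing is read from it, since the family was chosen with these data known. Among the 9 members the log2 fold changes had a median of 0.02, against 0.04 over all genes tested, and 7 of the 9 lay within 1 of zero on the log2 scale. Igfbp7 was not called without GFP-negative replicate 6, where its log2 fold change was 5.23 and 1 gene in all was called, and it was called in the 13 other alternative fits. DESeq2 also called Igfbp5 higher; it called 1.16% of all genes tested higher and 4.39% in either direction.

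**Figure D4:**
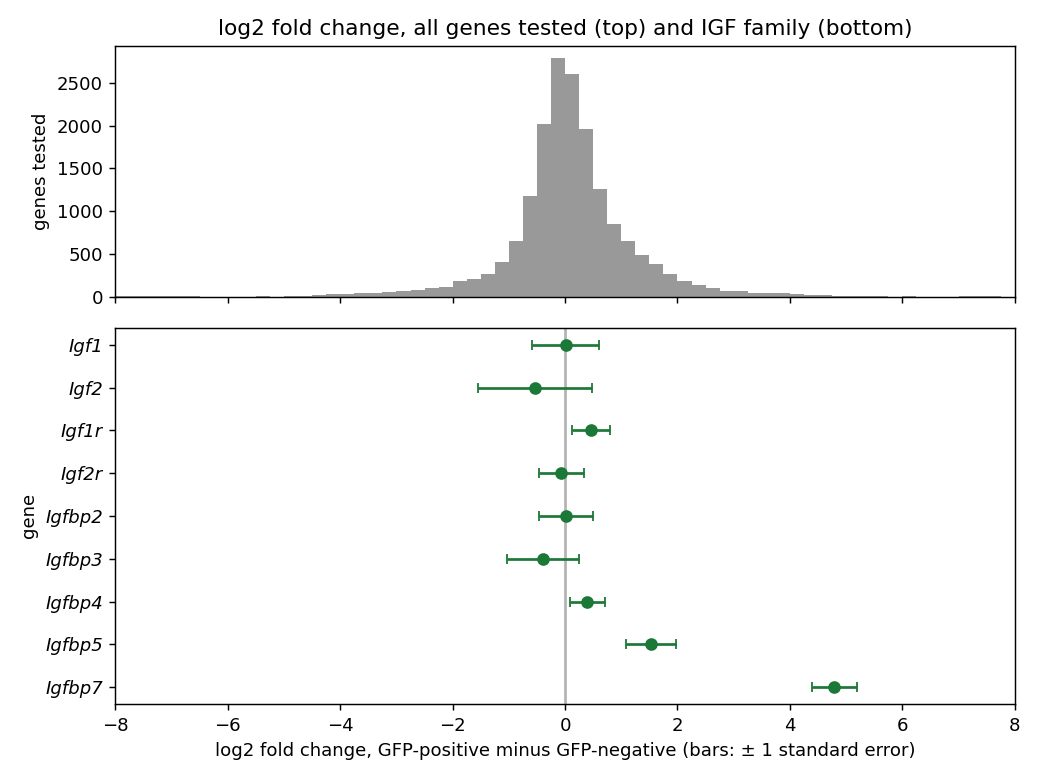
Log2 fold change, GFP-positive minus GFP-negative, as a histogram over all 17940 genes tested (top; 126 genes lie beyond 8 in either direction and are not drawn) and for the 9 tested family members with ± 1 standard error (bottom). Igfbp7 lies at 4.79 and Igfbp5 at 1.53, and the other 7 members lie between -0.53 and 0.46.

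Per kilobase of exon, which allows genes to be ranked, Igfbp7 averaged 259 ± 3.20 CPM per kilobase in the GFP-positive libraries, against 9.40 ± 3.50 in the GFP-negative ones (SD, n = 2 each). In GFP-positive cells it stood first, separate from all others, with either length. Igfbp4 (11.2), Igfbp2 (8.67), Igf1r (6.97) and Igfbp5 (4.91 CPM per kilobase) followed in GFP-positive cells, and each neighbouring pair among these 4 overlapped between libraries. Igf2r (2.38), Igf1 (1.47) and Igfbp3 (1.02) came next, again with overlap between neighbours, and Igfbp6 (0.18) and Igf2 (0.12 CPM per kilobase) were last. In GFP-negative cells Igfbp7, Igfbp2 (8.56) and Igfbp4 (8.53 CPM per kilobase) overlapped in that order, so Igfbp7 did not stand apart there, and its first place depended on the length used. With the longest transcript as the length, the GFP-negative libraries had Igfbp2 at 12.3 and 11.9, Igfbp4 at 10.7 and 9.02 and Igfbp7 at 6.97 and 11.96 CPM per kilobase, which put Igfbp7 behind both on average. By exon length, too, Igfbp7 had rank 3 in GFP-negative replicate 2. Igf1r (5.07), Igf2r (2.48) and Igfbp5 (1.69 CPM per kilobase) were separate from their upper neighbours, Igfbp5 overlapped with Igf1 (1.45) and Igf1 with Igfbp3 (1.36), and Igf2 (0.16) and Igfbp6 (0.06) were last and overlapped. The receptor Igf1r exceeded both ligands in each of the 4 libraries, from 4.89 to 8.65 CPM per kilobase, whereas Igf1 ranged from 0.81 to 2.12.

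Genes that followed the Igfbp7 pattern most closely over the 4 libraries were sought among 10111 other tested genes with a mean of at least 10 CPM, by Euclidean distance of log2(CPM + 0.5) after subtracting each gene's mean. The 5 nearest were Tex11 (distance 0.25), Ackr3 (0.36), Calb2 (0.50), Folr1 (0.61) and 1700017G19Rik (0.94). Their order depends on the added 0.5, which shrinks differences where CPM is near 0. Without it, the ratio of means was 111 for Tex11, 43.6 for Ackr3, 18.9 for Calb2, 25.6 for Folr1 and 22.8 for 1700017G19Rik, against 27.6 for Igfbp7. Tex11, a gene known from meiosis, stood at 21.9 and 18.5 CPM in GFP-positive, against 0 and 0.36 CPM in GFP-negative libraries. Ackr3, an atypical chemokine receptor, stood at 36.5 and 25.4 CPM in GFP-positive, against 0.36 and 1.06 CPM in GFP-negative libraries. Calb2, which encodes the calcium-binding protein calretinin, stood at 2098 and 2195 CPM in GFP-positive, against 84.4 and 142.9 CPM in GFP-negative libraries. Folr1, a folate receptor, stood at 32.8 and 28.9 CPM in GFP-positive, against 0.96 and 1.45 CPM in GFP-negative libraries. With 4 libraries in 2 fractions, likeness of this kind is a description.

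The wider insulin and IGF pathway was followed through 59 further genes in 7 lists. Of these, 53 were tested, and 1 passed, Stc1, which was lower in GFP-positive cells, where 0.87% of all genes tested passed in that direction. None was higher by edgeR, DESeq2 or limma-voom. At an unadjusted edgeR p under 0.05, 1 was higher (Igfbpl1) and 4 were lower (Stc1, Pappa2, Irs1 and Foxo6), or 5 of 53, against 12.6% of all genes tested. Their log2 fold changes had a median of -0.05, against 0.04 over all genes tested, and the fractions did not overlap for 43.4% of the 53 and 43.8% of all. Ins1, Ins2 and Igfbp1 were at 0 in all 4 libraries.

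Stc1 stood out among the proteases that cut IGF binding proteins and their inhibitors. Stanniocalcin-1, its product, inhibits the protease PAPP-A. Stc1 (ENSMUSG00000014813) had 58 and 91 counts in GFP-positive, against 869 and 1021 counts in GFP-negative libraries, or 1.27 and 1.91 CPM against 20.8 and 28.5 CPM. Both GFP-positive libraries were low and the fractions were far apart, with a GFP-negative mean 15.5 times the GFP-positive one. By edgeR, the log2 fold change of Stc1 came to -3.95 ± 0.53, with an adjusted p of 0.0149. Over 14 alternatives the adjusted p ran from 2.94e-12 to 0.175 and the log2 fold change from -4.28 to -3.70. The call was lost when GFP-positive replicate 2 was left out (0.0608 as the edgeR adjusted p), when GFP-positive replicate 3 was left out (0.0823) and when GFP-negative replicate 6 was left out (0.175). Pappa2, a protease of IGFBP3 and IGFBP5, had 154 and 0 counts in GFP-positive, against 390 and 617 in GFP-negative libraries (edgeR adjusted p = 0.259). Pappa, the protease that Stc1 inhibits, was low, at 0.52 and 0.25 CPM in GFP-positive, against 0.76 and 1.59 CPM in GFP-negative libraries (edgeR adjusted p = 0.566). Htra1, a serine protease that cuts IGFBP5, stood at 129 and 208 CPM in GFP-positive, against 137 and 21.0 CPM in GFP-negative libraries, with GFP-negative replicate 6 far below the other 3 (edgeR adjusted p = 0.578). Stc2, a second stanniocalcin, stood at 1.05 and 1.18 CPM in GFP-positive, against 0.74 and 0.73 CPM in GFP-negative libraries (edgeR adjusted p = 0.831).

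Upstream, the insulin receptor gene Insr stood at 44.4 and 41.3 CPM in GFP-positive, against 44.3 and 27.7 CPM in GFP-negative libraries (edgeR adjusted p = 0.826). Igfbpl1, an IGFBP-like secreted protein, stood at 2.10 and 4.31 CPM in GFP-positive, against 0.31 and 0.67 CPM in GFP-negative libraries; the fractions did not overlap, and the log2 fold change was 2.74 ± 0.94 (edgeR adjusted p = 0.276). Among 15 tested receptor adaptors and phosphatases none passed by edgeR, DESeq2 or limma-voom, and 1 of the 15 did at an unadjusted edgeR p under 0.05, against 12.6% of all genes tested. That gene was Irs1, an insulin receptor substrate, at 7.83 and 1.18 CPM in GFP-positive, against 15.3 and 15.2 CPM in GFP-negative libraries (log2 fold change -1.77 ± 0.72, edgeR adjusted p = 0.359). Irs2, the other main substrate, stood at 52.0 and 64.7 CPM in GFP-positive, against 51.8 and 46.0 CPM in GFP-negative libraries (edgeR adjusted p = 0.793). Downstream, none of 23 tested genes of the PI3K, AKT, mTOR and FOXO list passed by edgeR, DESeq2 or limma-voom, 1 of the 23 did at an unadjusted edgeR p under 0.05 (Foxo6; 12.6% of all genes tested), and 21 had a log2 fold change within 1 of zero. The catalytic subunit gene Pik3ca stood at 158 and 135 CPM in GFP-positive, against 163 and 132 CPM in GFP-negative libraries, and was chosen as an example after its values were seen.

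**Figure D5:**
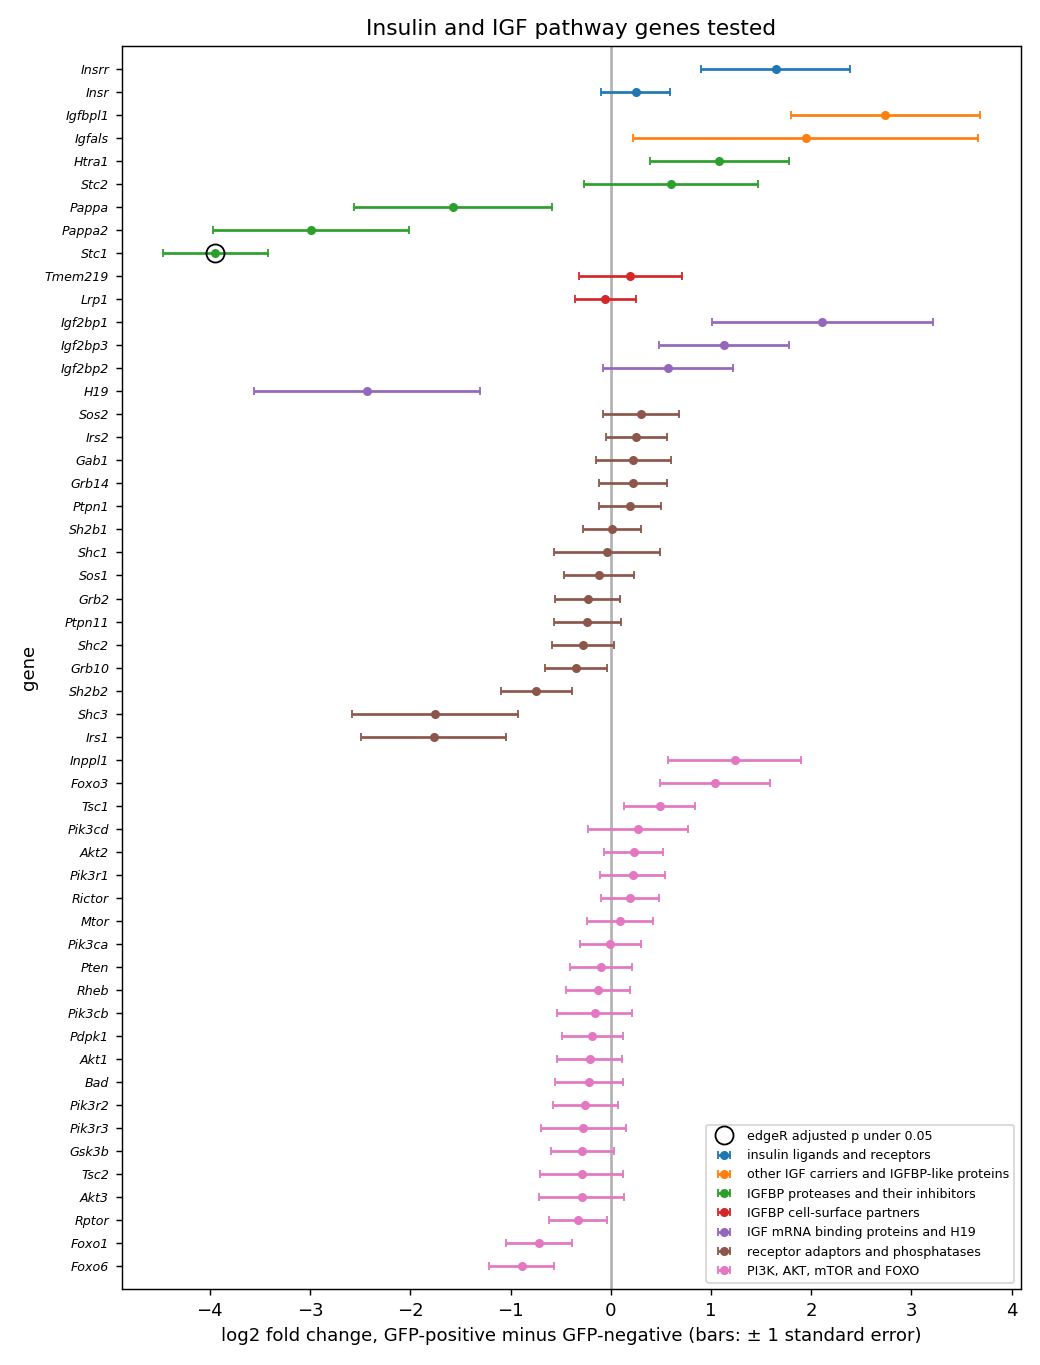
Log2 fold change, GFP-positive minus GFP-negative, of the 53 tested pathway genes with ± 1 standard error, coloured by list. Stc1, circled, at -3.95, is the gene past an edgeR adjusted p of 0.05, and 39 of the 53 genes lie within 1 of zero.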

How the data were processed

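The authors deposited raw counts per Ensembl gene as 1 table for all libraries; a further deposited table, of scaled values, was not used here. The submitters' processing notes name Trimmomatic, STAR 2.7.3a, MultiQC, limma and GRCm38, without roles. How reads were assigned to genes, and whether by strand, was not given in the sources used here. Per the labels' protocols, RNA came from small sorted samples and was amplified with an ultra-low-input kit. The series text gives 4 replicates from 3 litters; 4 libraries were analysed here.

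GFP-positive libraries were set against GFP-negative ones with edgeR 4.0.16 (R 4.3.3): TMM scaling, filterByExpr (minimum count 10, minimum total 15), estimateDisp, robust glmQLFit in its current form, and glmQLFTest. A call is a Benjamini-Hochberg adjusted p under 0.05 over 17940 genes. The fit had 2 residual degrees of freedom and a common biological coefficient of variation of 55.4%. The standard error was taken as |log2 fold change| divided by √F. CPM used the scaled library sizes, and levels per kilobase the union of exons in GENCODE M21. DESeq2 1.42.0 and limma-voom (limma 3.58.1) were alternatives, and the tools were tested on simulated data. There edgeR called 2% of genes changed 2-fold, 58% of those changed 4-fold and 96% of those changed 8-fold. The changed genes were drawn only from genes above a set mean CPM, so these shares do not cover low genes such as Igf2 and Igfbp3. False calls numbered 13 with edgeR, 75 with DESeq2 and 17 with limma-voom. A gene that was not called may therefore still differ, and a call by DESeq2 alone is weaker. All pairs of libraries differed by far more than sampling noise (chi-square per degree of freedom from 130.9). The lowest value was between GFP-positive and GFP-negative replicate 2, below the 146.2 within GFP-positive and the 176.9 within GFP-negative libraries. Whether these replicates share an animal was not tested.

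The family and all gene lists were chosen with earlier results of these data known. Named by rule were the members, Gbx2, called pathway genes, Insr, Irs1, Irs2, Pappa, Cd93 and Igfbpl1, the leading marker of a list and those at 0, and the 5 genes nearest to Igfbp7. Other genes named (Pappa2, Htra1, Stc2, H19, Foxo6, Pik3ca, markers other than the leading ones, and genes that overlap a member) were chosen after their values were seen. Alternatives were other scalings, filters, tools and quasi-likelihood settings, leaving out rod and mitochondrial genes, and leaving out each library.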

Additional observations from a re-analysis of the deposited data

How the results depend on the processing

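Over all genes, 198 were called, 106 with no filter on low counts, 92 with limma-voom, 787 with DESeq2 and 48 with edgeR's legacy quasi-likelihood fit, which was chosen after seeing the data. Leaving out 1 library gave 1 to 336 calls over all genes, 0 to 2 among the pathway genes and 0 to 1 among the family members. DESeq2 called 2 members, Igfbp7 and Igfbp5. The pathway genes called besides Stc1 were Htra1 without GFP-negative replicate 2 and Pappa2 without GFP-positive replicate 2; leaving out GFP-positive replicate 3 gave no pathway call, nor did leaving out GFP-negative replicate 6. The cause was not tested.

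The log2 fold change of Igfbp7 ran from 4.39 to 5.23 over the fits that left out a library and from 4.75 to 4.98 over the other alternatives. That of Igfbp5 ran from 1.09 to 1.85 when a library was left out and up to 1.67 over the others. Igf1, Igf2, Igf2r and Igfbp2 changed sign when single libraries were left out, within -0.81 to 0.80, -1.22 to 1.07, -0.57 to 0.29 and -0.71 to 0.48. With the longest transcript in place of the union of exons, all 10 members kept their rank in GFP-positive cells but only 4 of 10 in GFP-negative cells, where Igfbp7 moved behind Igfbp2 and Igfbp4, and Igfbp5 behind Igf1 and Igfbp3; over all libraries together 8 of 10 kept it. No paired analysis was possible because the fractions share only replicate number 2, which leaves no residual degree of freedom. Counts were lowest for Igfbp6, at 0 to 19 per library, and Igf2, at 11 to 66.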

Other observations

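Further pathway genes are given here as values, without explanation. Irs4, an insulin receptor substrate gene, had 140 counts in GFP-negative replicate 6 and 0 in the other 3 libraries. Igfals, which encodes the acid-labile subunit of serum IGF complexes, had 0 and 47 counts in GFP-positive, against 10 and 0 in GFP-negative libraries. Igf2bp1, an RNA-binding protein gene that binds Igf2 mRNA, had 35 and 23 counts in GFP-positive, against 5 and 6 in GFP-negative libraries (edgeR adjusted p = 0.476). Insrr, the orphan receptor related to the insulin receptor, stood at 7.44 and 3.79 CPM in GFP-positive, against 2.58 and 0.92 CPM in GFP-negative libraries (edgeR adjusted p = 0.413). These genes were chosen after their values were seen.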
